A study of Mus musculus with 20 samples.

Results

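The genes described here are the interferon-stimulated and antiviral sensing genes of the mouse liver, in livers of progeroid Ercc1Δ/- mice and wild type mice on control or restricted food. They were chosen by symbol from a fixed list of 42 genes, and every probe set whose single symbol in the array annotation was on that list was assigned to its gene. The annotation gave such a probe set for 38 of the 42 genes, 55 probe sets in all, among 17097 genes measured on the array. Isg15, Ifi44, Oas1a and Bst2 had none and were not analysed here. Of the 38 genes, 14 had several probe sets and were represented by the one with the highest mean over all arrays, and 33 reached a mean of at least 5 on the log2 scale in 1 or more groups. Oasl2, Oas3, Herc6, Mx1 and Sp100 stayed below that level in every group, where array values compress differences.

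Total RNA from the livers of 20 mice aged 11 weeks was hybridised to Affymetrix arrays, 1 array per animal and 5 animals per group. The groups were progeroid restricted (animals 362, 365, 366, 368 and 369), progeroid control (321, 323, 325, 326 and 327), wild type restricted (421 to 425) and wild type control (401 to 405). Progeroid mice carried the alleles Ercc1Δ and Ercc1- in every cell, and the wild type mice were their littermates; all were F1 hybrids of C57BL6J and FVB. Ercc1 encodes a subunit of an endonuclease of nucleotide excision and crosslink repair, and mice with little of it age early. All animals ate AIN93G pellets. In both restricted groups the ration was cut by 10% from 7 weeks of age and by 30% from 9 weeks. Wild type mice ate 3.0 g per day when fed freely and were given 2.1 g per day at 30% restriction. A second ration at 30% restriction, 1.6 g per day, has no genotype beside it in the protocol and is taken as that of the progeroid mice. The labels give neither the sex nor the hour of sampling.

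Type I interferons are secreted when cells sense foreign or misplaced nucleic acid, whereas type II interferon comes mainly from activated T and NK cells. Both act through receptors that activate JAK kinases and STAT transcription factors. A complex that includes STAT2 and IRF9 binds the interferon-stimulated response element (ISRE) in the promoters of antiviral genes, and the gamma-activated site (GAS) serves the response to type II interferon. The induced genes include the cytosolic sensors and IRF7, which amplify the response, enzymes and GTPases that attack viruses and parasites, and USP18, which damps receptor signalling. In the liver, hepatocytes, Kupffer cells and endothelial cells can all respond. In whole liver RNA, fewer cells of a type and less RNA per cell cannot be told apart.

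Letters of the response elements were found in the promoter windows of some of the listed genes, and binding was not tested. RefSeq windows of assembly GRCm38.p6, from 250 bases before to 50 bases after each start, were given for 31 of the 42 listed genes, 37 windows in all. The ISRE core, GAAA followed after any 2 bases by a further GAAA and searched on both strands, was present in 19 of these windows (51.4%), against 3.44% of all 32851 windows. The GAS letters TTCNNNGAA were present in 8 (21.6%), against 8.30% of all windows. For 5 members with large differences between groups and a match the 150 bases directly before the start are shown, 5′ to 3′ on the strand of the gene; capitals mark the ISRE core, on either strand, and overlapping matches run together. Irf7, Xaf1 and Cmpk2, which also differed between groups, had no match in their windows, and Gbp3 had another window, farther downstream, without one.
Rsad2, chr12:26456453-26456602, minus strand, match 120 bases before the start: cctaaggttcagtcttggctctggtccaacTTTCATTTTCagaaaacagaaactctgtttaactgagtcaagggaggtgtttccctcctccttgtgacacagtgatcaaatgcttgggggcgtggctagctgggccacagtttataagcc
Gbp3, chr3:142559894-142560043, plus strand, matches 45 and 39 bases before the start: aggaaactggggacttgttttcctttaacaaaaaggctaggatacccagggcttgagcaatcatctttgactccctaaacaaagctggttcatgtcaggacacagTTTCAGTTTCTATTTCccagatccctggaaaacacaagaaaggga
Ifit1, chr19:34640739-34640888, plus strand, matches 104 and 85 bases before the start: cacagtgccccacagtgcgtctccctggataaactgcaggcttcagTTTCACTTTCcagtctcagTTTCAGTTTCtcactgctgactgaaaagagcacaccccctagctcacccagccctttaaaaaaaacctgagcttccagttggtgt
Oas1g, chr5:120887614-120887763, minus strand, matches 18 and 12 bases before the start: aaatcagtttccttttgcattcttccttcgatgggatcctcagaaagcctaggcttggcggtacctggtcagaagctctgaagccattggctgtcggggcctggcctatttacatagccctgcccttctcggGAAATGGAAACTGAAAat
Igtp, chr11:58199406-58199555, plus strand, match 34 bases before the start: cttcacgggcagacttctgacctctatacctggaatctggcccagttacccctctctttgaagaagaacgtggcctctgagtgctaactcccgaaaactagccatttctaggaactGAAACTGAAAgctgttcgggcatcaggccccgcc

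The arrays correlated with each other at 0.979 to 0.997 across genes. Ercc1 itself was 4.80 ± 0.24 in progeroid restricted, 5.30 ± 0.15 in progeroid control, 6.15 ± 0.12 in wild type restricted and 6.54 ± 0.07 in wild type control livers (log2 RMA values, mean ± SD, n = 5), lower in progeroid livers on both diets (log2 fold change -1.35 on restricted and -1.24 on control food). RMA values are background-corrected and normalised probe intensities on the log2 scale, and they are compared here between groups for the same gene, never between genes. As a sign of RNA integrity, the Gapdh probe set at the 3′ end exceeded that at the 5′ end by 0.932 ± 0.284 in progeroid control livers, against 0.656 ± 0.0606 in wild type control livers (SD, n = 5 each; two-sided exact permutation p = 0.0476, adjusted over 5 comparisons 0.238). The unadjusted p of the other 4 comparisons lay between 0.111 and 0.714. With this difference as a covariate, 17 in place of 22 members were higher in progeroid than in wild type livers on control food, and its part in the members' differences was not tested further.

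Averaged over the members, levels were highest in the progeroid livers and lowest in the restricted wild type livers. Some single members had another order. Oas2 and Sp100 had their highest group mean in wild type control livers. The lowest group mean was in progeroid restricted livers for Stat2 and Oas3, and in wild type control livers for Irf1 and Ifih1. For each animal the deviation of each member from its wild type control mean was averaged over the 38 members. This mean was 0.147, 0.503, 0.658, 0.612 and 0.493 in progeroid restricted animals 362, 365, 366, 368 and 369. It was 0.415, 0.646, 0.507, 0.476 and 0.664 in progeroid control animals. The progeroid groups overlapped, and animal 362 stood below the other 9 progeroid animals. The mean was -0.254, -0.227, -0.671, -0.490 and -0.585 in wild type restricted animals 421 to 425, and 0.040, -0.011, 0.193, -0.112 and -0.109 in wild type control animals 401 to 405. All 5 restricted wild type animals lay below all 5 wild type controls, and only animal 362 of the progeroid animals lay within the wild type control range. Animal 362 had the lowest level of its group for 32 of the 38 members. The map of all members in each liver shows this pattern by functional group.

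**Figure D1:**
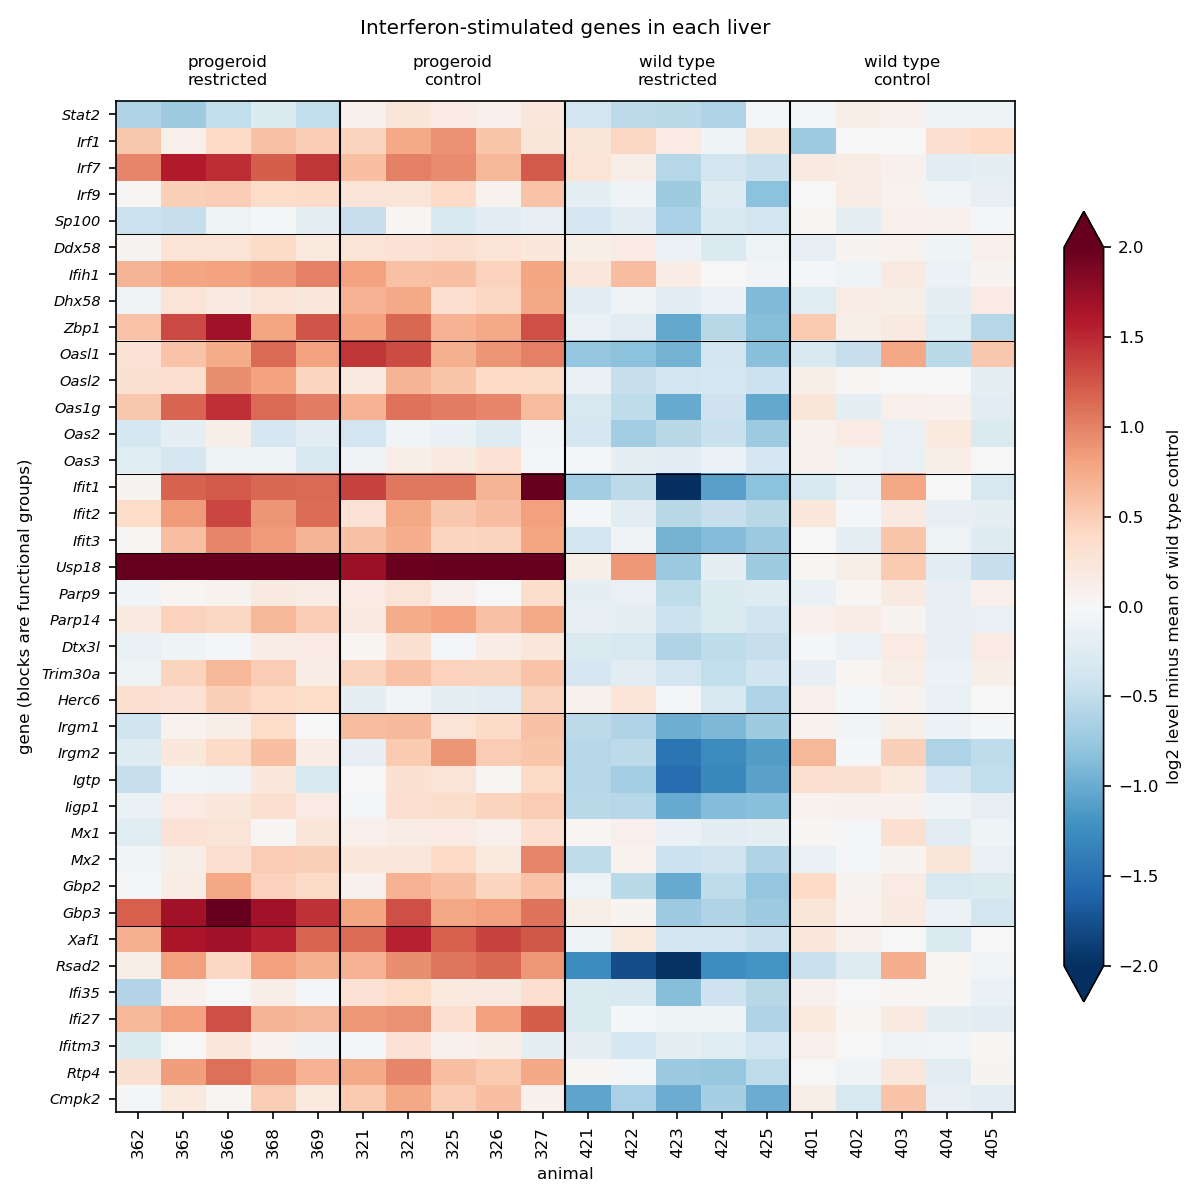
Log2 level of each of the 38 members (rows, in blocks of functional groups) minus its mean in wild type control livers, for each of the 20 animals (columns, in 4 groups); colours saturate at 2 log2 units either way. Most rows are red in the 10 progeroid livers and blue in the 5 restricted wild type livers, and animal 362 is the palest progeroid column.

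Between genotypes, 22 of 38 members rose in progeroid control livers against wild type control livers and 0 fell, where a change means an adjusted p under 0.05 in limma over all genes. Of all 17097 genes, 6.7% rose and 4.32% fell. Among genes with a group mean of at least 5, 21 of 33 members rose, against 10.7% of 9230 genes. The median log2 fold change was 0.50 over the members and -0.01 over all genes, 35 members were positive, and 17 did not overlap between the groups in the higher direction (5.4% of all genes). Without adjustment, 1 member was lower at p under 0.05 (11.4% of all genes). On restricted food, 32 of 38 rose in progeroid restricted livers against wild type restricted livers and 0 fell, with 11.8% and 5.44% of all genes. Of the brighter members 30 of 33 rose, against 18.8%. The median was 0.83 over the members and -0.0026 over all genes, and 28 members did not overlap (7.95% of all genes). At an unadjusted p under 0.05, 0 members were lower there (11.6% of all genes).

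Between diets, 21 of 38 members fell in wild type restricted livers against wild type control livers and 0 rose, while 12.6% of all genes fell and 9.92% rose. Of the brighter members 19 of 33 fell, against 18.7%. The median was -0.37 over the members and -0.03 over all genes, and 13 members were lower without overlap (8.77% of all genes). At an unadjusted p under 0.05, 28 were lower (18.8% of all genes) and 0 higher (14.2%). In progeroid restricted livers against progeroid control livers, 4 members fell and 1 rose, with 5.07% and 6.94% of all genes. The median was -0.09 over the members and -0.01 over all genes, and 4 members were lower without overlap (3.78% of all genes). The count of 1 higher became 0 without animal 321 or 366, 2 without animal 422 or 425, and 3 without animal 327 or 362. The comparisons within a genotype or a diet share animals, so their counts are not independent of each other.

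**Figure D2:**
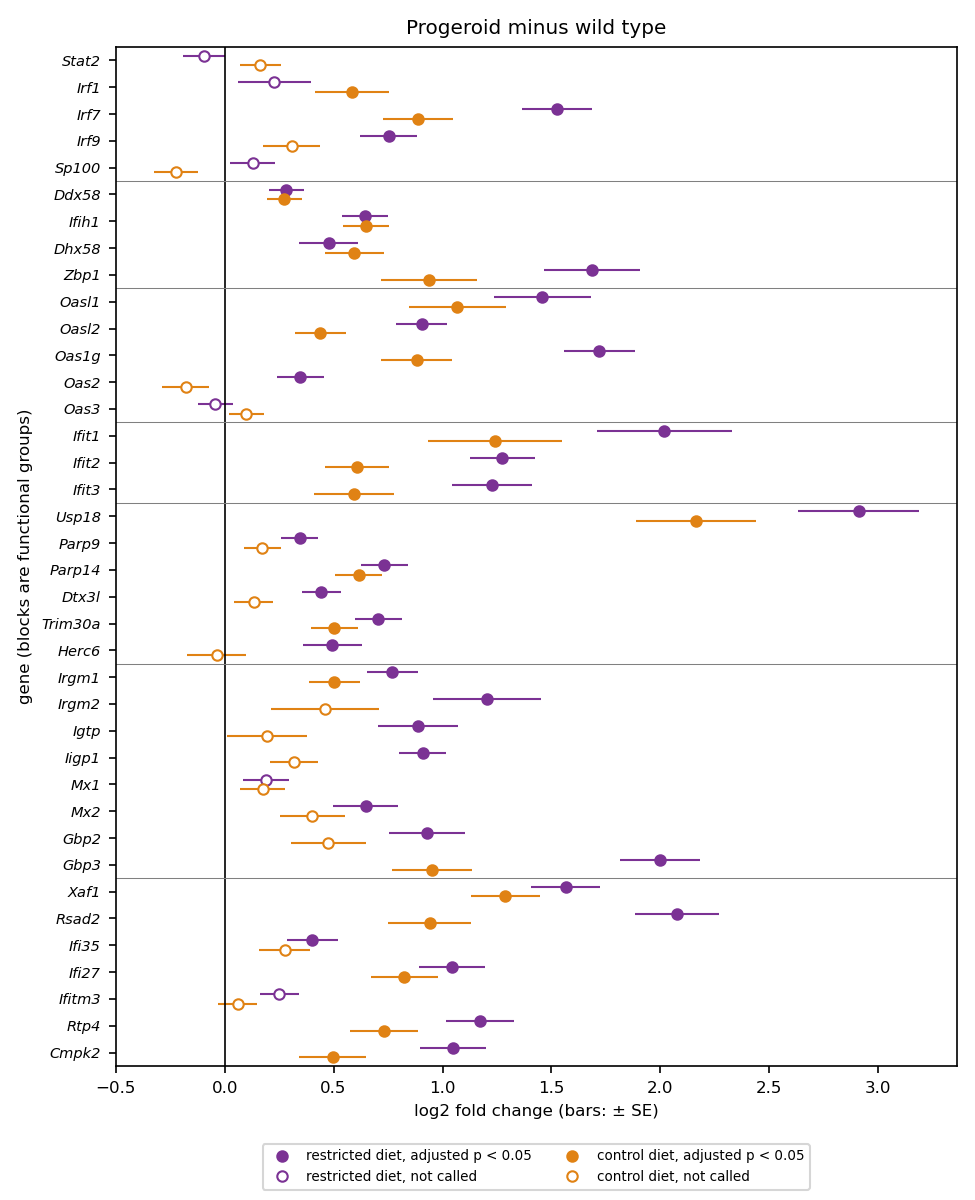
Log2 fold change of each member, progeroid minus wild type, on restricted food (purple) and control food (orange), with SE bars; filled points have an adjusted p under 0.05. The 32 filled purple and 22 filled orange points all lie right of 0, and Usp18 lies farthest right on both diets.

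Among the transcription factors, Irf7, the inducible amplifier of type I interferon genes, rose in progeroid livers on restricted and on control food. It had 7.00, 7.61, 7.50, 7.24 and 7.46 in progeroid restricted livers, 6.63, 7.04, 6.97, 6.69 and 7.25 in progeroid control livers, 6.30, 6.17, 5.46, 5.67 and 5.58 in wild type restricted livers and 6.21, 6.17, 6.12, 5.81 and 5.83 in wild type control livers. Every progeroid animal lay above every wild type animal, and the diets overlapped within each genotype. Irf7 rose by 1.53 ± 0.16 (SE) on the log2 scale on restricted food (adjusted p = 1.87e-06) and by 0.89 ± 0.16 on control food (adjusted p = 0.000825). With restriction it differed by 0.45 in progeroid livers (adjusted p = 0.0769) and by -0.19 in wild type livers (adjusted p = 0.445). Irf9, the DNA-binding partner of STAT2, rose by 0.75 ± 0.13 in progeroid livers on restricted food (adjusted p = 0.000408) and fell by 0.40 ± 0.13 with restriction in wild type livers (adjusted p = 0.0303). The fall was lost without animal 401, 402, 403, 423 or 425 (adjusted p 0.0505 to 0.099). Irf9 differed by 0.31 between the control groups (adjusted p = 0.144).

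Stat2, the transactivating partner of IRF9, was lower with restriction in both genotypes, and no difference between genotypes on the same diet passed the test. It had 6.37, 6.25, 6.48, 6.69 and 6.47 in progeroid restricted livers, 7.05, 7.21, 7.12, 7.07 and 7.19 in progeroid control livers, 6.59, 6.44, 6.42, 6.35 and 6.94 in wild type restricted livers and 6.93, 7.08, 7.05, 6.88 and 6.87 in wild type control livers. All 5 progeroid restricted livers lay below all 5 progeroid controls, whereas in wild type livers restricted animal 425 lay among the controls. Stat2 fell by 0.67 ± 0.10 with restriction in progeroid livers (adjusted p = 0.000139) and by 0.42 ± 0.10 in wild type livers (adjusted p = 0.00339). Its genotype differences were -0.09 on restricted food (adjusted p = 0.566) and 0.16 on control food (adjusted p = 0.315). Irf1, a factor induced by interferon gamma, was 8.06 ± 0.26 in progeroid livers on control food, against 7.47 ± 0.44 in wild type livers, and rose by 0.58 ± 0.17 (adjusted p = 0.0276). The call was lost without animal 323, 325, 401 or 402 (adjusted p 0.0512 to 0.0728). It was also lost with the Gapdh covariate (adjusted p = 0.0773) and with only the groups compared in the fit (adjusted p = 0.0879). Sp100, a nuclear body protein, was dim; it fell by 0.37 ± 0.10 with restriction in wild type livers (adjusted p = 0.0115), a call lost when the probe sets of the gene were averaged (adjusted p = 0.175).

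All 4 sensors rose in progeroid livers on both diets (11.8% of all genes on restricted and 6.7% on control food). None of the sensors passed the test with restriction in wild type livers. Ifih1 encodes MDA5, a sensor of long double-stranded RNA. It had 8.38, 8.49, 8.51, 8.57 and 8.71 in progeroid restricted livers, 8.51, 8.28, 8.31, 8.17 and 8.50 in progeroid control livers, 7.92, 8.32, 7.86, 7.69 and 7.65 in wild type restricted livers and 7.67, 7.62, 7.88, 7.59 and 7.77 in wild type control livers. The genotypes did not overlap on either diet, and wild type restricted animal 422 was the nearest to the progeroid livers. Ifih1 rose by 0.65 ± 0.11 on restricted food (adjusted p = 0.000221) and by 0.65 ± 0.11 on control food (adjusted p = 0.0003), and with restriction in wild type livers it differed by 0.18 (adjusted p = 0.24). Zbp1, a sensor of Z-form nucleic acid that can start necroptosis, had 5.67, 6.43, 6.79, 5.90 and 6.37 in progeroid restricted livers, 5.91, 6.25, 5.80, 5.87 and 6.39 in progeroid control livers, 4.97, 4.89, 4.07, 4.56 and 4.25 in wild type restricted livers and 5.63, 5.22, 5.29, 4.86 and 4.53 in wild type control livers. The genotypes did not overlap on either diet. Zbp1 rose by 1.68 ± 0.22 on restricted food (adjusted p = 2.54e-05) and by 0.94 ± 0.22 on control food (adjusted p = 0.00741).

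Ddx58 encodes RIG-I, which senses RNA with a 5′ triphosphate, and moved least of the sensors. It rose by 0.28 ± 0.08 on restricted food (adjusted p = 0.0187) and by 0.27 ± 0.08 on control food (adjusted p = 0.0325). The first call was lost without animal 368 or 424 (adjusted p 0.0605 and 0.0627), and the second without animal 321, 323, 325, 326, 401 or 404 (adjusted p 0.0536 to 0.0943). With centred arrays neither passed (0.11 and 0.17, adjusted p = 0.234 and 0.113). Dhx58 encodes LGP2, a regulator of both RNA sensors. It had 6.74, 7.08, 6.99, 7.06 and 7.02 in progeroid restricted livers, 7.50, 7.57, 7.15, 7.22 and 7.58 in progeroid control livers, 6.58, 6.73, 6.58, 6.69 and 5.93 in wild type restricted livers and 6.56, 6.95, 6.92, 6.63 and 6.97 in wild type control livers. The genotypes did not overlap on either diet, and animal 425 was the lowest wild type liver. Dhx58 rose by 0.48 ± 0.13 on restricted food (adjusted p = 0.0167) and by 0.60 ± 0.13 on control food (adjusted p = 0.00537), and fell by 0.42 ± 0.13 with restriction in progeroid livers (adjusted p = 0.0447), where the groups did not overlap. The rise on restricted food was lost when the probe sets of the gene were averaged (log2 fold change 0.18, adjusted p = 0.0706), with centred arrays (adjusted p = 0.07) and with quantile normalization (adjusted p = 0.0727). The fall was lost with averaged probe sets too (log2 fold change -0.13, adjusted p = 0.22), and without any of animals 321, 323, 327, 362, 365, 366, 368, 369, 403 and 423 (adjusted p 0.0509 to 0.114).

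The 2-5A synthetase family makes the second messenger that activates RNase L, and OASL1 lacks that activity. Of the 5 genes, 4 rose in progeroid livers on restricted food, 3 on control food, and 4 fell with restriction in wild type livers. The shares of all genes were 11.8%, 6.7% and 12.6%. Oas1g had 7.11, 7.73, 8.04, 7.71 and 7.60 in progeroid restricted livers, 7.27, 7.66, 7.59, 7.55 and 7.20 in progeroid control livers, 6.25, 6.06, 5.57, 6.16 and 5.55 in wild type restricted livers and 6.81, 6.39, 6.67, 6.66 and 6.34 in wild type control livers. Every progeroid animal lay above every wild type animal, and the wild type diets did not overlap either. Oas1g rose by 1.72 ± 0.16 on restricted food (adjusted p = 4.71e-07) and by 0.88 ± 0.16 on control food (adjusted p = 0.000956), and fell by 0.65 ± 0.16 with restriction in wild type livers (adjusted p = 0.00562). The Oas1 genes are close copies of each other, so probes may read more than 1 of them.

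Oasl1, an inducible member, had 6.17, 6.45, 6.61, 7.01 and 6.68 in progeroid restricted livers, 7.31, 7.18, 6.59, 6.77 and 6.89 in progeroid control livers, 5.10, 5.05, 4.93, 5.50 and 5.04 in wild type restricted livers and 5.57, 5.41, 6.65, 5.34 and 6.43 in wild type control livers. Wild type control animals 403 and 405 lay within the range of the progeroid livers. Oasl1 rose by 1.46 ± 0.22 on restricted food (adjusted p = 0.000109) and by 1.07 ± 0.22 on control food (adjusted p = 0.003), and its fall by 0.75 ± 0.22 in wild type livers (adjusted p = 0.0181) was lost without animal 403 or 405 (adjusted p 0.0577 and 0.0555). Oas2 was 5.28 ± 0.19 in progeroid restricted, 5.31 ± 0.14 in progeroid control, 4.94 ± 0.16 in wild type restricted and 5.49 ± 0.21 in wild type control livers. It fell by 0.55 ± 0.11 with restriction in wild type livers, without overlap (adjusted p = 0.000891), and differed by -0.18 between the control groups (adjusted p = 0.336). It rose by 0.35 ± 0.11 in progeroid livers on restricted food (adjusted p = 0.0304), lost without animal 365, 366, 422, 423 or 425 (adjusted p 0.0521 to 0.1). The rise was also lost with centred arrays (0.17, adjusted p = 0.168) and with quantile normalization (0.19, adjusted p = 0.24). Oasl2 and Oas3 were dim, with group means of 3.38 to 4.29 and 3.43 to 3.75. Oasl2 rose in progeroid livers on both diets and fell with restriction in wild type livers, and Oas3 fell with restriction in progeroid livers (by 0.32 ± 0.08, adjusted p = 0.0127). On control food the Oasl2 call was lost without animal 323 (adjusted p = 0.053), and its fall without animal 401, 402, 403, 404, 422, 423, 424 or 425 (adjusted p 0.0598 to 0.0848).

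The IFIT proteins restrict viral RNA, IFIT1 by binding RNA that lacks host cap methylation. All 3 measured members rose in progeroid livers on both diets (11.8% of all genes on restricted and 6.7% on control food). Ifit1 had 6.19, 7.32, 7.35, 7.29 and 7.26 in progeroid restricted livers, 7.48, 7.19, 7.19, 6.81 and 8.19 in progeroid control livers, 5.43, 5.61, 3.90, 5.05 and 5.32 in wild type restricted livers and 5.82, 5.98, 6.91, 6.14 and 5.82 in wild type control livers. Animal 362 was the low progeroid liver, animal 423 the low wild type liver, and animal 403 the only wild type liver within the progeroid control range. Ifit1 rose by 2.02 ± 0.31 on restricted food (adjusted p = 0.000113) and by 1.24 ± 0.31 on control food (adjusted p = 0.0111), the second call being lost with the Gapdh difference as a covariate (0.97, adjusted p = 0.0953). It fell by 1.07 ± 0.31 with restriction in wild type livers (adjusted p = 0.016), a call lost without animal 403 (adjusted p = 0.0519) or 423 (adjusted p = 0.0513). Ifit2 was 5.71 ± 0.36 in progeroid restricted, 5.41 ± 0.21 in progeroid control, 4.44 ± 0.23 in wild type restricted and 4.80 ± 0.19 in wild type control livers, and rose by 1.27 ± 0.15 on restricted food and by 0.61 ± 0.15 on control food (adjusted p = 6.93e-06 and 0.01). Ifit3 rose by 1.23 ± 0.18 on restricted food (adjusted p = 9.64e-05). On control food it rose by 0.59 ± 0.18 (adjusted p = 0.0407), and it fell by 0.60 ± 0.18 with restriction in wild type livers (adjusted p = 0.0226). The control-food call was lost without animal 321, 323, 327, 401, 402, 404 or 405 (adjusted p 0.0643 to 0.0978). It was also lost with the Gapdh covariate (adjusted p = 0.174), with every probe set fitted on its own (adjusted p = 0.0555), with centred arrays (adjusted p = 0.052) and with quantile normalization (adjusted p = 0.0523). The fall was lost without animal 403, 423, 424 or 425 (adjusted p 0.0528 to 0.0725).

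Usp18, the protease that removes ISG15 from proteins and blocks the type I receptor, had the largest genotype difference of the members on both diets. It had 8.33, 9.38, 9.38, 9.10 and 8.85 in progeroid restricted livers, 7.95, 8.19, 8.24, 8.56 and 9.04 in progeroid control livers, 6.34, 7.10, 5.49, 6.03 and 5.52 in wild type restricted livers and 6.27, 6.35, 6.75, 6.02 and 5.77 in wild type control livers. Every progeroid animal lay above every wild type animal, and the diets overlapped within each genotype. Usp18 rose 7.51-fold on restricted food (log2 fold change 2.91 ± 0.28, adjusted p = 5.57e-07), and 4.48-fold on control food (2.16 ± 0.28, adjusted p = 2.43e-05). With restriction it differed by 0.61 in progeroid livers (adjusted p = 0.169) and by -0.14 in wild type livers (adjusted p = 0.781).

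The other enzymes of ubiquitin and ADP-ribose transfer moved less. Parp14, an ADP-ribosyltransferase, rose by 0.73 ± 0.11 on restricted food and by 0.61 ± 0.11 on control food (adjusted p = 9.43e-05 and 0.000738). Trim30a, a RING finger protein, rose by 0.71 ± 0.11 and by 0.50 ± 0.11 (adjusted p = 0.000117 and 0.00392), and fell by 0.37 ± 0.11 with restriction in wild type livers (adjusted p = 0.0171). Dtx3l and Parp9 encode partners in a ubiquitin ligase complex. Dtx3l was 9.06 ± 0.14 in progeroid restricted, 9.18 ± 0.14 in progeroid control, 8.61 ± 0.13 in wild type restricted and 9.05 ± 0.16 in wild type control livers. Only the restricted wild type group stood apart: Dtx3l rose by 0.44 ± 0.09 in progeroid livers on restricted food (adjusted p = 0.00146) and fell by 0.43 ± 0.09 with restriction in wild type livers (adjusted p = 0.00135), with a difference of 0.13 between the control groups (adjusted p = 0.397). Parp9 was 9.77 ± 0.09, 9.87 ± 0.14, 9.43 ± 0.14 and 9.70 ± 0.15 in progeroid restricted, progeroid control, wild type restricted and wild type control livers. It rose by 0.35 ± 0.08 on restricted food (adjusted p = 0.00687), or by 0.17 with centred arrays (adjusted p = 0.1). Its fall by 0.27 ± 0.08 in wild type livers (adjusted p = 0.025) was lost without animal 403, 405 or 423 (adjusted p 0.0609 to 0.0825). The fall was also lost with centred arrays (adjusted p = 0.0556) and with only the groups compared in the fit (adjusted p = 0.0504). Herc6, the mouse ISG15 ligase, was dim and was called higher on restricted food (0.49 ± 0.14, adjusted p = 0.0142), a call lost with centred arrays (0.32, adjusted p = 0.0584).

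The immunity-related GTPases and guanylate-binding proteins disrupt the vacuoles of intracellular parasites. Of these genes, with the dynamin-like Mx genes, 5 of 8 fell with restriction in wild type livers (12.6% of all genes). In progeroid livers 7 rose on restricted food (11.8%) and 2 on control food (6.7%). Igtp had 8.73, 9.14, 9.13, 9.42 and 8.88 in progeroid restricted livers, 9.20, 9.50, 9.45, 9.23 and 9.58 in progeroid control livers, 8.63, 8.52, 7.67, 7.91 and 8.13 in wild type restricted livers and 9.52, 9.51, 9.40, 8.87 and 8.71 in wild type control livers. Restricted wild type animals were below all others, and the other 3 groups overlapped. Igtp fell by 1.03 ± 0.18 with restriction in wild type livers (adjusted p = 0.000378) and was 0.89 ± 0.18 higher in progeroid livers on restricted food (adjusted p = 0.0018). Its difference between the control groups was 0.19 (adjusted p = 0.578).

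Iigp1, whose product is loaded onto parasite vacuoles, had 12.37, 12.67, 12.72, 12.82 and 12.67 in progeroid restricted livers, 12.46, 12.84, 12.86, 12.94 and 13.01 in progeroid control livers, 11.97, 11.93, 11.49, 11.63 and 11.67 in wild type restricted livers and 12.58, 12.59, 12.59, 12.43 and 12.33 in wild type control livers. All restricted wild type animals lay below all others. Iigp1 fell by 0.76 ± 0.11 with restriction in wild type livers (adjusted p = 3.76e-05), rose by 0.91 ± 0.11 in progeroid livers on restricted food (adjusted p = 9.07e-06), and differed by 0.32 between the control groups (adjusted p = 0.0645). Irgm1, a regulator of the other immunity-related GTPases, had 8.49, 8.96, 9.00, 9.24 and 8.88 in progeroid restricted livers, 9.51, 9.54, 9.15, 9.26 and 9.47 in progeroid control livers, 8.36, 8.28, 7.91, 7.98 and 8.18 in wild type restricted livers and 8.95, 8.84, 9.01, 8.77 and 8.85 in wild type control livers. The genotypes did not overlap on either diet, nor did the diets in wild type livers. Irgm1 was called in all 4 pairings within a diet or a genotype. It rose by 0.77 ± 0.12 on restricted food and 0.50 ± 0.12 on control food (adjusted p = 9.94e-05 and 0.0063), and fell with restriction by 0.47 ± 0.12 in progeroid livers and by 0.74 ± 0.12 in wild type livers (adjusted p = 0.0107 and 0.000105). Irgm2 rose by 1.20 ± 0.25 on restricted food (adjusted p = 0.00176) and fell by 0.99 ± 0.25 in wild type livers with restriction (adjusted p = 0.00638).

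Gbp3, a guanylate-binding protein, had 7.63, 8.11, 8.54, 8.10 and 7.87 in progeroid restricted livers, 7.21, 7.72, 7.20, 7.24 and 7.51 in progeroid control livers, 6.55, 6.48, 5.70, 5.83 and 5.70 in wild type restricted livers and 6.67, 6.49, 6.60, 6.32 and 6.06 in wild type control livers. Every progeroid animal lay above every wild type animal. Gbp3 rose 3.99-fold on restricted food (adjusted p = 3.85e-07) and by 0.95 ± 0.18 on control food (adjusted p = 0.00157). It was the only member called higher with restriction in progeroid livers (0.67 ± 0.18, adjusted p = 0.0204), and without animal 321 or 366 that call was lost (adjusted p 0.0503 and 0.0639). In wild type livers its difference with restriction was -0.37 (adjusted p = 0.163). Gbp2 rose by 0.93 ± 0.17 in progeroid livers on restricted food (adjusted p = 0.000761), and its fall by 0.58 ± 0.17 in wild type livers (adjusted p = 0.0188) was lost without animal 401 or 423 (adjusted p 0.0596 and 0.0626). Mx2, a dynamin-like antiviral GTPase, rose by 0.65 ± 0.15 on restricted food (adjusted p = 0.00429). Mx1 was dim, with group means of 3.72 to 3.97, and was not called in any comparison.

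Rsad2 encodes viperin, which makes a chain-terminating nucleotide, and had the largest fall of the members with restriction in wild type livers. It had 7.25, 7.94, 7.52, 7.94 and 7.82 in progeroid restricted livers, 7.80, 8.04, 8.18, 8.25 and 7.98 in progeroid control livers, 5.85, 5.33, 5.13, 5.86 and 5.91 in wild type restricted livers and 6.67, 6.85, 7.83, 7.14 and 7.05 in wild type control livers. All restricted wild type animals lay below all others, and control animal 403 was the only wild type liver within the progeroid range. Rsad2 fell 2.81-fold with restriction in wild type livers (log2 fold change -1.49 ± 0.19, adjusted p = 1.21e-05), and differed by -0.36 in progeroid livers (adjusted p = 0.259). It rose by 2.08 ± 0.19 in progeroid livers on restricted food (adjusted p = 4.06e-07) and by 0.94 ± 0.19 on control food (adjusted p = 0.0026). When every probe set was fitted on its own, its other 2 probe sets had the same calls in these comparisons, with log2 fold changes of -1.17 and -0.84 with restriction in wild type livers. Cmpk2, the mitochondrial nucleotide kinase that neighbours Rsad2 on chromosome 12, fell by 0.87 ± 0.15 with restriction in wild type livers, without overlap (adjusted p = 0.000315), and rose by 1.05 ± 0.15 in progeroid livers on restricted food (adjusted p = 7.56e-05). Its rise by 0.50 ± 0.15 on control food (adjusted p = 0.0401) was lost without animal 321, 323, 325, 326, 402, 404 or 405 (adjusted p 0.0638 to 0.115). It was also lost under 6 other alternatives, among them averaged probe sets (0.21, adjusted p = 0.218).

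Xaf1, an antagonist of the apoptosis inhibitor XIAP, rose in progeroid livers and passed no test of diet. It had 7.10, 8.02, 8.08, 7.95 and 7.56 in progeroid restricted livers, 7.51, 7.92, 7.58, 7.74 and 7.63 in progeroid control livers, 6.31, 6.59, 6.01, 6.03 and 5.95 in wild type restricted livers and 6.61, 6.47, 6.37, 6.12 and 6.38 in wild type control livers. Every progeroid animal lay above every wild type animal, and the diets overlapped within each genotype. Xaf1 rose by 1.57 ± 0.16 on restricted food (adjusted p = 1.17e-06) and by 1.29 ± 0.16 on control food (adjusted p = 1.71e-05), with a difference of -0.21 for restriction in wild type livers (adjusted p = 0.382). Ifi27 rose by 1.04 ± 0.15 and 0.83 ± 0.15 (adjusted p = 7.53e-05 and 0.000997) on restricted and control food, and Rtp4, a chaperone of transmembrane receptors, by 1.17 ± 0.16 and 0.73 ± 0.16 (adjusted p = 2.95e-05 and 0.00353). Ifi35 fell by 0.48 ± 0.12 with restriction in wild type livers, without overlap (adjusted p = 0.00521). Its rise by 0.40 ± 0.12 on restricted food (adjusted p = 0.021) was lost without animal 365, 366, 368 or 423 (adjusted p 0.0515 to 0.0688) and with centred arrays (0.23, adjusted p = 0.0963). Ifitm3, which blocks fusion of enveloped viruses, fell by 0.26 ± 0.09 with restriction in wild type livers (adjusted p = 0.036), lost without animal 401, 402, 405, 422, 424 or 425 (adjusted p 0.0521 to 0.0881), and was not called between genotypes.

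**Figure D3:**
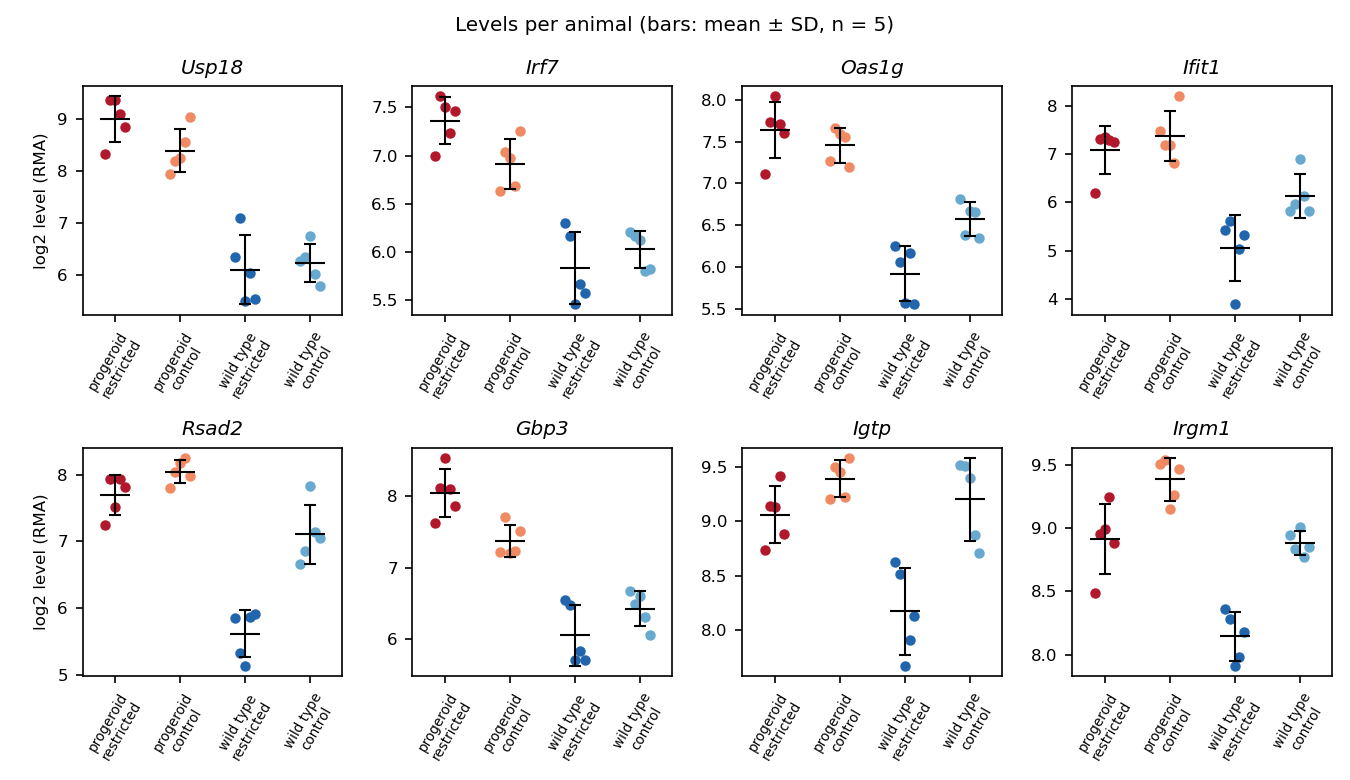
Log2 RMA level of 8 members in each animal, with 1 panel per gene and the 4 groups in the same order; black bars give the group mean ± SD (n = 5), and the vertical axes do not start at 0. In Usp18, Irf7, Oas1g and Gbp3 all progeroid points lie above all wild type points, whereas in Igtp the restricted wild type points lie apart below the other 3 groups.

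**Figure D4:**
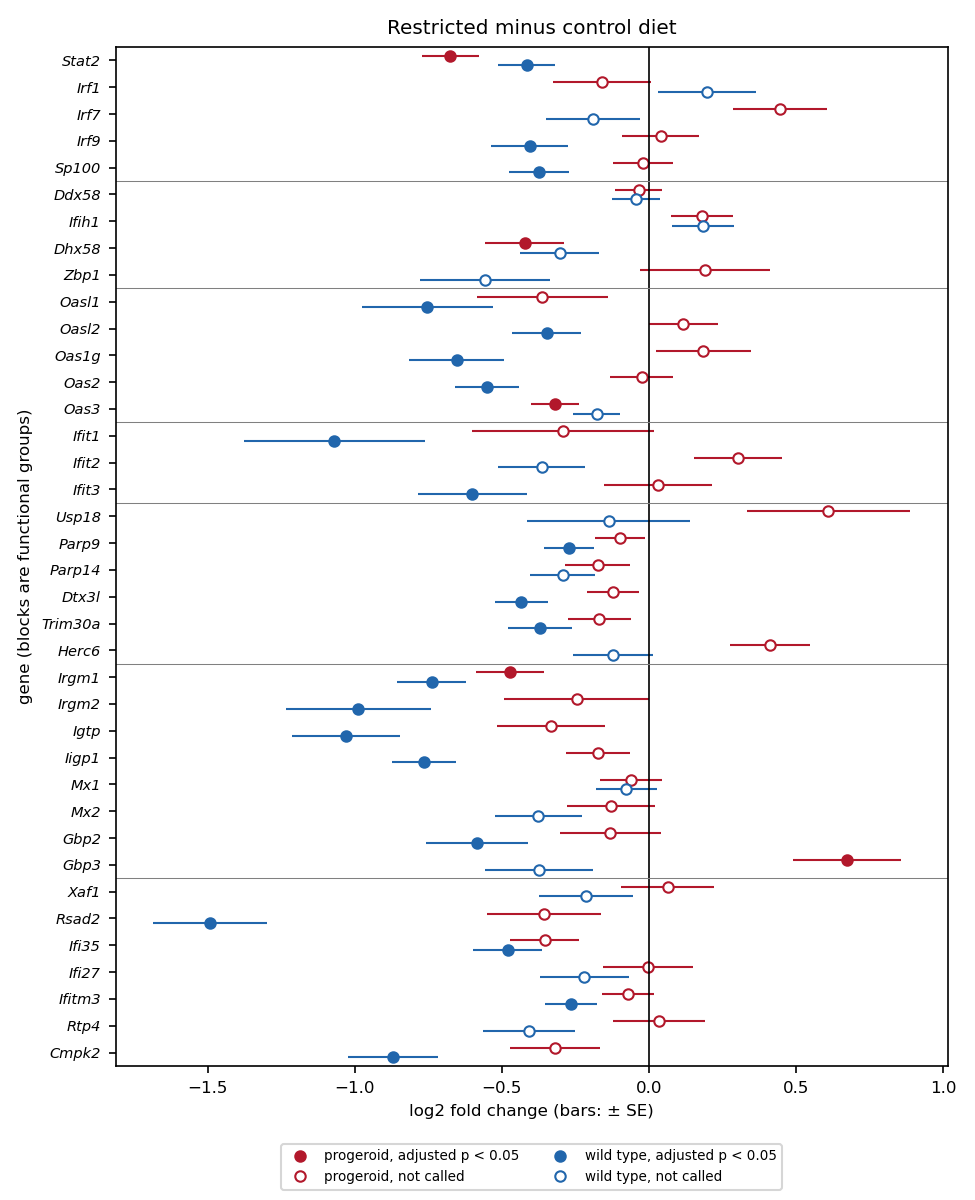
Log2 fold change of each member with restriction, restricted minus control food, in progeroid livers (red) and wild type livers (blue), with SE bars; filled points have an adjusted p under 0.05. The 21 filled blue points lie left of 0, while 4 filled red points lie left of 0 and 1, Gbp3, right of it.

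The response to restriction was compared between genotypes directly, by subtracting the diet effect in wild type livers from that in progeroid livers. The same number compares the genotype effects on the 2 diets. It was positive for 33 of 38 members, with a median of 0.42 against 0.02 over all genes. After adjustment 2 members passed, both higher, and 0 lower, with 1.03% and 0.374% of all genes. These were Rsad2 at 1.13 ± 0.27 (adjusted p = 0.0413) and Gbp3 at 1.05 ± 0.26 (adjusted p = 0.0492), the first with a fall in wild type livers and the second with a rise in progeroid livers. Without adjustment 17 members were higher at p under 0.05 (9.12% of all genes) and 0 lower (5.09%). Iigp1 at 0.59 ± 0.15 (adjusted p = 0.059), Oas1g at 0.84 ± 0.23 (adjusted p = 0.0712) and Oas2 at 0.53 ± 0.15 (adjusted p = 0.0965) came next. The difference was -0.003 ± 0.149 for Ifih1 and 0.0092 ± 0.115 for Ddx58. The 2 calls rest on the animals included. Rsad2 missed the threshold without animal 321, 323, 325, 327, 365, 366, 368, 369, 403, 404, 422 or 423 (adjusted p 0.0508 to 0.0817). Gbp3 missed it without animal 321, 325, 326, 327, 365, 366, 368, 369, 401, 402, 403, 404, 423, 424 or 425 (adjusted p 0.061 to 0.101). Without progeroid restricted animal 362 or wild type restricted animal 421, 5 members passed, and without wild type control animal 405, 4.

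Restricted progeroid livers were also set against wild type livers on control food. Of 38 members 19 were higher and 2 lower, with 13.9% and 11.5% of all genes, and the median was 0.35 against -0.03. Without overlap, 13 were higher and 1 lower, with 10.6% and 8.24% of all genes. Usp18 was 2.77 ± 0.28 higher (adjusted p = 4.01e-07), Gbp3 1.62 ± 0.18 (adjusted p = 1.99e-06), Xaf1 1.35 ± 0.16 (adjusted p = 3.11e-06) and Irf7 1.33 ± 0.16 (adjusted p = 4.14e-06). The GTPases Igtp, Irgm1 and Iigp1 differed by -0.14, 0.03 and 0.15 (adjusted p = 0.618, 0.874 and 0.346). Stat2 was 0.51 ± 0.10 lower without overlap (adjusted p = 0.000509). Oas3, the other member called lower, was dim (-0.22 ± 0.08, adjusted p = 0.0496), and without animal 323, 325, 362, 365, 369, 401, 402, 404, 405, 422, 423 or 424 it missed the threshold (adjusted p 0.0524 to 0.124).

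Centring each array on its median moved the median log2 fold change of all genes by -0.17 between genotypes on restricted food, by -0.10 on control food and by -0.14 between restricted progeroid and wild type control livers, and by 0.04 or less in size within a genotype. Over all genes the counts then became 764 higher and 2798 lower on control food in progeroid against wild type livers (1145 and 738 uncentred), and 1158 and 6513 on restricted food (2018 and 930). With restriction they became 940 and 1133 in progeroid livers (1186 and 867) and 1924 and 1688 in wild type livers (1696 and 2146). Between restricted progeroid and wild type control livers they became 1465 and 6621 (2369 and 1973). The members stayed on the higher side between genotypes, with 19 higher and 1 lower on control food and 26 higher and 2 lower on restricted food, and 20 fell with restriction in wild type livers. Their median log2 fold changes became 0.40, 0.66 and -0.34 in these comparisons. Some members were called lower after centring but not in the reported fit. They were Sp100 between genotypes on control food, Stat2 and Oas3 on restricted food, Ifi35 with restriction in progeroid livers, and Oas2 and Sp100 in restricted progeroid against wild type control livers. Ifi35 was also called lower there under other alternatives, 2 of which leave out 1 animal.

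The members' counts were also split by the ISRE core. Of the 15 measured genes with a match, 9 rose on control food, 12 rose on restricted food and 11 fell with restriction in wild type livers. Of the 12 with a window but no match, 7, 10 and 7 did so. The other 11 had no window in the table, and 6, 10 and 3 of them did so. Over all genes the shares were 6.7%, 11.8% and 12.6%. A missing match says only that these letters were not in the window.

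The genes that make interferon were dim on these arrays. None of the 11 measured interferon ligand genes reached a group mean of 5, and 0 passed limma's test in any comparison. Ifnb1, the first type I interferon made, was 3.06 ± 0.14 in progeroid livers on control food, against 3.19 ± 0.08 in wild type livers (adjusted p = 0.197), and Ifng was 2.98 ± 0.13 and 2.91 ± 0.15 in the same groups (adjusted p = 0.686). Of 9 receptor and JAK-STAT genes, 4 rose in progeroid livers on restricted food, 1 on control food, and 2 fell with restriction in wild type livers. The shares of all genes in these comparisons were 11.8%, 6.7% and 12.6%. Ifngr1, the ligand-binding chain of the interferon gamma receptor, rose by 0.48 ± 0.09 on restricted food and 0.38 ± 0.09 on control food (adjusted p = 0.000479 and 0.00558). Ifnar1, a chain of the type I receptor, differed by 0.20 and 0.11 (adjusted p = 0.0791 and 0.389). Ifnar2, the other chain, fell by 0.36 ± 0.10 with restriction in wild type livers (adjusted p = 0.0178).

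Upstream of the ligands, 5 of 11 measured adaptors, kinases and endosomal sensors rose in progeroid livers on restricted food (11.8% of all genes). On control food 2 rose and 2 fell (6.7% and 4.32% of all genes). Tlr3, the endosomal sensor of double-stranded RNA, rose by 0.52 ± 0.11 on restricted food and 0.95 ± 0.11 on control food (adjusted p = 0.00194 and 7.63e-06). Ikbke, a kinase that activates IRF3, rose by 0.49 ± 0.11 and 0.92 ± 0.11 (adjusted p = 0.0025 and 7.63e-06). With restriction in wild type livers 3 of the 11 genes rose and 3 fell, against 9.92% and 12.6% of all genes. The median was -0.15 over the 11 genes and -0.03 over all genes. Tlr3 and Ikbke were among those that rose, by 0.34 and 0.47 (adjusted p = 0.0282 and 0.00275), the direction opposite to that of most members. Mavs, the adaptor of RIG-I and MDA5, was lower by 0.31 ± 0.07 in progeroid control livers (log2 fold change -0.31, adjusted p = 0.0094). Tmem173 and Mb21d1, which encode STING and cGAS of the cytosolic DNA pathway, were not analysed here.

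A second list held 43 measured interferon-stimulated genes that are not members. In progeroid livers 29 rose on restricted food and 0 fell (11.8% and 5.44% of all genes). On control food 18 rose and 1 fell (6.7% and 4.32%). With restriction 16 fell and 1 rose in wild type livers (12.6% and 9.92%), and 2 fell and 2 rose in progeroid livers (5.07% and 6.94%). Ifi27l2a rose by 2.23 ± 0.21 on restricted food and 1.12 ± 0.21 on control food (adjusted p = 5.57e-07 and 0.00132) and fell by 1.16 ± 0.21 with restriction in wild type livers (adjusted p = 0.000492). Ifi47, an immunity-related GTPase, rose by 1.32 ± 0.17 and 1.24 ± 0.17 (adjusted p = 1.95e-05 and 4.56e-05), and fell with restriction by 0.90 ± 0.17 in progeroid and 0.97 ± 0.17 in wild type livers (adjusted p = 0.0015 and 0.000271). The interferon gamma-induced chemokine Cxcl9 fell by 1.67 ± 0.27 with restriction in wild type livers (adjusted p = 0.00013), and the GTPase gene Tgtp1 by 1.57 ± 0.28 (adjusted p = 0.000312). Ddx60, a cofactor of RNA sensing, rose by 1.33 ± 0.19 and 1.24 ± 0.19 in progeroid livers on restricted and control food (adjusted p = 7.56e-05 and 0.000208).

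Kupffer cell and macrophage markers moved in the same directions as most members between genotypes and with restriction in wild type livers. Of 13 measured markers, 10 rose in progeroid livers on restricted food and 3 on control food (11.8% and 6.7% of all genes). With restriction in wild type livers 4 fell (12.6%), and 0 markers moved the other way in these comparisons. Their mean log2 level ranged over animals from 8.06 to 8.82 in progeroid restricted, 7.97 to 8.59 in progeroid control, 7.34 to 7.90 in wild type restricted and 7.77 to 8.22 in wild type control livers, so the genotypes overlapped on control food and not on restricted food. Clec4f, which defines Kupffer cells, rose by 0.89 ± 0.13 on restricted food and 0.48 ± 0.13 on control food (adjusted p = 6.51e-05 and 0.017), and fell by 0.72 ± 0.13 with restriction in wild type livers (adjusted p = 0.000344). Adgre1, which encodes F4/80, fell by 0.94 ± 0.14 there (adjusted p = 6.45e-05). With restriction in progeroid livers 1 of 13 markers rose and 0 fell, and 1 of 38 members rose and 4 fell. Of all genes 6.94% rose and 5.07% fell there. The part of these cells in the members' differences was not tested.

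Markers of lymphocytes and other blood cells were low. None of 11 T and NK cell markers reached a group mean of 5. Of these, 0 were called between genotypes and 3 fell with restriction in wild type livers (12.6% of all genes). Of 9 neutrophil and monocyte markers 1 reached that level, and S100a8 and S100a9 rose in progeroid livers (by 1.47 each on control food). Of 6 plasmacytoid dendritic cell markers 2 reached it, and Ly6d rose by 1.54 ± 0.26 on control food (adjusted p = 0.000517). Of 5 B cell markers 1 reached it, and Blnk rose by 2.05 ± 0.24 on control food (adjusted p = 7.63e-06). No other marker of these blood cell lists was called between genotypes on control food. Their medians there were 0.007 for neutrophils and monocytes, 0.03 for plasmacytoid dendritic cells and -0.03 for B cells, against -0.01 over all genes. The 8 hepatocyte markers had mean log2 levels of 13.51 to 13.71 over all animals. Between genotypes 0 of them rose on control or restricted food, against 6.7% and 11.8% of all genes. On control food 1 fell (Tat) and on restricted food 2 (Tat and Serpina1a), against 4.32% and 5.44% of all genes. Sinusoidal endothelium had 1 of 8 markers higher on restricted food (11.8% of all genes) and 1 lower with restriction in wild type livers (12.6%).

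**Figure D5:**
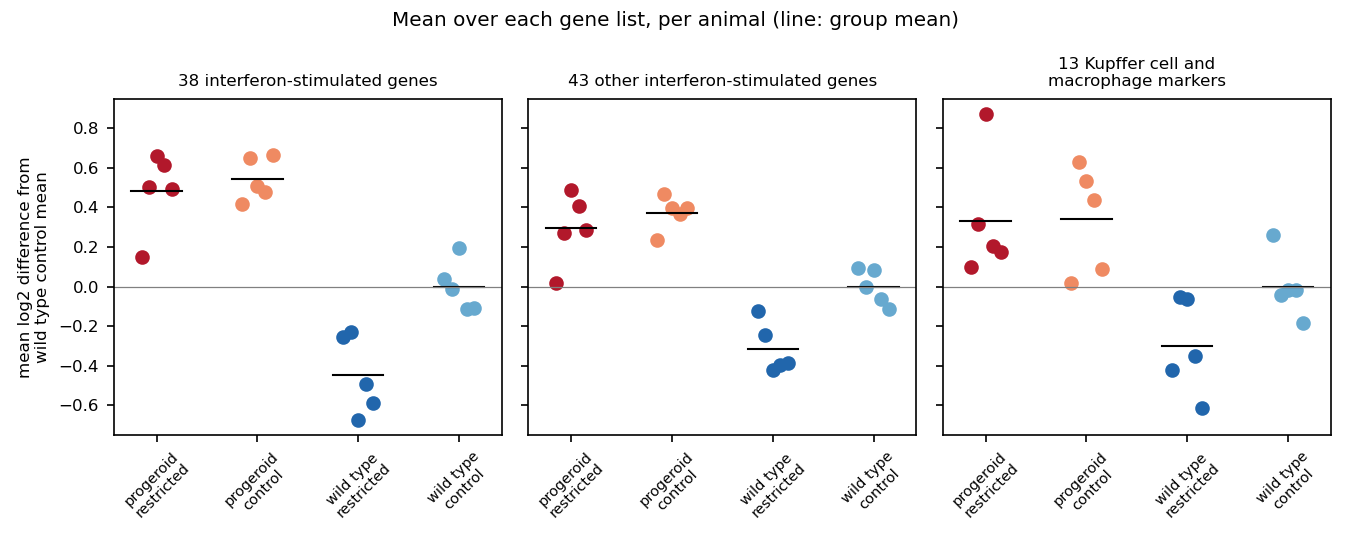
Mean log2 difference from the wild type control mean over the 38 members, the 43 other interferon-stimulated genes and the 13 Kupffer cell and macrophage markers, for each animal in the 4 groups; lines are group means. In all 3 panels the progeroid animals lie above 0 and the restricted wild type animals below it.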

How the data were processed

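Liver RNA of 20 mice was measured on Affymetrix arrays. The values deposited by the authors are log2 levels, and the submitters' processing notes name RMA as the method (version not given in the sources used here). The method sets all arrays to 1 distribution, so an overall shift would be removed. Values ranged from 2.19 to 14.51, and precision is limited by the number of arrays.

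Control probe sets (104 of 45141) were left out. Of the others, 28898 carried 1 symbol and were used, 551 carried several and 15588 none. Each of 17097 genes was represented by its probe set with the highest mean, dim ones included. All 38 measured members were found by Entrez ID in RefSeq genes of GRCm38.p6, with 0 symbols changed.

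limma 3.58.1 in R 4.3.3 (lmFit, eBayes; 1 mean per group, 16 residual degrees of freedom) gave 6 contrasts, two-sided, with Benjamini-Hochberg adjustment over all genes within each and a call at an adjusted p under 0.05. The fit was tested on simulated data. Errors are SE for fold changes and SD for levels, n = 5 per group. Gapdh was compared by exact permutation over 252 assignments. No gene list was tested as a set. The members, the gene lists and the alternatives were chosen with earlier results of these data known. Values per animal are given in the text for some members with called changes in each functional group, and for those whose diet effect differed between genotypes. Some members with large called changes, such as Irgm2 and Cmpk2, have none there. From each other list the genes with the smallest adjusted p were named, with Ifnb1, Ifng, Ifnar1, Ifnar2, Mavs and Ercc1. The labels name separate animals, and the 4 groups share no animal number. Alternatives are given in the closing section.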

Additional observations from a re-analysis of the deposited data

Results flagged for a closer look

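In 9 of 156 sets of 5 animals 1 animal stood apart from the other 4 by Dixon's test, which chance alone does in about 5% of sets. Progeroid restricted animal 362 accounted for 4 of them: Irf9 was 7.551 (next 7.896), Ifit1 6.191 (next 7.257), Ifi35 7.778 (next 8.332) and Dhx58 6.742 (next 6.988), each the lowest of its group. In the same group, Ifi27 was 10.74 in animal 366 (next 10.269). In progeroid control animal 327, Mx2 was 6.855 (next 6.269) and Herc6 4.672 (next 4.178). In wild type restricted livers, Mx2 was 5.937 in animal 422 (next 5.468) and Dhx58 5.928 in animal 425 (next 6.577). The cause was not tested.

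For 4 genes of the members and the other gene lists the effect of restriction differed between genotypes by the test of the difference itself (progeroid minus wild type, log2, limma), which 1.03% of all genes passed on the higher side and 0.374% on the lower. It was 1.135 for Rsad2 (adjusted p = 0.0413), 1.047 for Gbp3 (adjusted p = 0.0492) and 0.68 for Tor3a, an interferon-inducible ATPase (adjusted p = 0.0464). It was 1.304 for Irf5, a transcription factor downstream of Toll-like receptors (adjusted p = 0.00754). Irf5 fell by 1.77 with restriction in wild type livers and was lower by 0.97 between the control groups (log2 fold change -0.97).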

How the results depend on the processing

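No paired analysis was possible because the 4 groups share no animal numbers. Each count was recomputed under 30 alternatives, 20 of which leave out 1 animal each; no called value changed direction, while some uncalled ones near 0 did. Of the members' calls, 16 of 22 on control food between genotypes, 26 of 32 on restricted food, 3 of 5 with restriction in progeroid livers, 12 of 21 in wild type livers, 14 of 21 in restricted progeroid against wild type control livers and 0 of 2 for the difference of diet effects held under every alternative that measured the gene. For some calls, the alternatives named above as losing them are only part of those that did. Leaving out 1 animal gave 17 to 24 and 30 to 34 members higher between genotypes on control and restricted food, and 15 to 24 lower with restriction in wild type livers. It gave 0 to 3 higher with restriction in progeroid livers, 1 to 3 lower in restricted progeroid against wild type control livers, and 0 to 5 with a diet effect that differed between genotypes (2 in the reported fit).

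With every probe set as its own feature, higher and lower calls over the whole array were 1793 and 1334 between genotypes on control food, 3182 and 1992 on restricted food, 2165 and 1550 with restriction in progeroid livers, 4449 and 4095 in wild type livers, and 4618 and 4043 in restricted progeroid against wild type control livers, where more features were tested. Lower calls were 122 for the difference of diet effects. Of the 55 member probe sets, among 45037 features, 26 were then higher between genotypes on control food and 41 on restricted food. With restriction in wild type livers 24 were lower, and 0 were called the other way in these 3 comparisons. With each array centred on its median, 2798 genes were lower between genotypes on control food. On restricted food 1158 were higher and 6513 lower, and in restricted progeroid against wild type control livers 1465 and 6621; 106 had a higher diet effect. Members called lower were then 1, 2 and 4 in these 3 comparisons. Quantile normalization gave 1490 lower on restricted food. With Gapdh as a covariate 473 were lower on control food, and 102 and 35 had a higher or lower diet effect; array weights gave 110 lower ones.

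Members higher with restriction in progeroid livers numbered 0 without probe sets shared between transcripts, 3 with array weights, and 2 with a trended robust fit, with Gapdh as a covariate or with only the groups compared. Without shared probe sets 28 members were measured, and Gbp3, the only call of the reported fit, was not among them. Members with a differing diet effect numbered 0 with averaged or separate probe sets, centring, quantile normalization or Gapdh as a covariate, 1 without shared probe sets, where Gbp3 was again not measured, and 4 with array weights or without dim genes. Members lower in restricted progeroid than in wild type control livers numbered 1 with separate probe sets, without shared or dim ones, or with Gapdh as a covariate. Oas3 was itself left out with the dim genes. Leaving out 1 animal gave 561 to 920 genes lower with restriction in progeroid livers (561 without animal 323), and 77 to 364 genes with a higher and 26 to 126 with a lower diet effect, lowest without animal 423 and highest without animal 421. Apart from what is said of more features, the causes of these changes were not tested.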

Other observations

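Genes that limit the sensing of self nucleic acid went both ways. Of 8 measured, 3 rose in progeroid livers on restricted food (11.8% of all genes). Among them were the deoxynucleotide hydrolase gene Samhd1 (0.51 ± 0.10, adjusted p = 0.00108) and the exonuclease gene Trex1 (0.63 ± 0.16, adjusted p = 0.00778). On control food Adar, an RNA editing enzyme, rose by 0.20 ± 0.06 (adjusted p = 0.045), while the lysosomal nuclease gene Dnase2a fell by 1.41 ± 0.22 (adjusted p = 0.000168) and Rnaseh2c, which encodes a subunit of RNase H2, fell by 0.44 ± 0.09 (adjusted p = 0.00366). With restriction in wild type livers 4 fell and 1 rose, with Dnase2a lower by 1.08 (log2 fold change -1.08, adjusted p = 0.00107). Of all genes 12.6% fell and 9.92% rose there, and between genotypes on control food 6.7% rose and 4.32% fell.

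Of 9 negative regulators of interferon signalling, 0 passed on control food between genotypes (limma, all genes). On restricted food the phosphatase gene Ptpn6 rose by 0.71 ± 0.12 (adjusted p = 0.000452) and Socs3, an inhibitor of JAK kinases, by 1.37 ± 0.44 (adjusted p = 0.0348), while Irf2 and Trim24 fell. There 11.8% of all genes rose and 5.44% fell. Trim24, a repressor of interferon signalling in mouse liver, rose with restriction by 1.91 ± 0.17 in progeroid livers and by 2.72 ± 0.17 in wild type livers (adjusted p = 5.68e-07 and 2.42e-09).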
